A study of Mus musculus with 3 samples.

Results

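Cycling all-lymphoid progenitors were taken here as the cells of the ALP library in which at least 3 UMIs (unique molecular identifiers, each standing for 1 captured mRNA molecule) came from the genes Mki67, Top2a, Ube2c and Cenpf together. There were 308 such cells among 810 kept ALP cells, 38.0% (95% Clopper-Pearson interval 34.7 to 41.5), and among 3355 kept cells of the series. They were set against the 334 ALP cells in which none of these genes had a UMI, called marker-free here. The other 168 cells had a sum of 1 or 2. The series profiled early lymphoid and innate lymphoid cell (ILC) progenitors of C57BL/6 mouse bone marrow by droplet sequencing with the 10x Chromium v2 kit. The ALP cells, from Tcf7EGFP/+ animals, passed the gate Lin- Kit+ 2B4+ a4b7- Flt3high IL-7Ra+. A second gate, Lin- Kit+ 2B4+ a4b7+ Tcf7+, gave the libraries ILCpro_WT, also Tcf7EGFP/+, and ILCpro_KO, whose genotype is written Tcf7EGFPnull/-. All 3 groups thus carried an EGFP allele of Tcf7, which encodes TCF-1, and none was free of it. Each group is 1 library, the number of animals behind each is not given in the sources used here, and no annotation of cell types by the authors was used. No difference below has a replicate check or a test, and every interval is a 95% interval for counting error only.

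A dividing cell copies its DNA in S phase, when replication factors, nucleotide-synthesis enzymes and the replication-dependent histone genes are at work. It then passes through G2 into mitosis, for which cyclins of the A and B type, kinetochore proteins and spindle motors accumulate. All-lymphoid progenitors are marrow cells that can give rise to B, T, NK, ILC and some dendritic cells. They are known for the cytokine receptors Flt3 and IL-7 receptor and for the first lymphoid genes, such as Dntt, which encodes the DNA polymerase that adds untemplated bases at antigen-receptor joints.

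Most of the chosen cells held UMIs of more than 1 of the 4 genes of the rule. Mki67 encodes the Ki-67 protein of dividing nuclei, Top2a the topoisomerase that untangles replicated DNA, Ube2c a ubiquitin-conjugating enzyme of the anaphase-promoting complex, and Cenpf a centromere protein. Levels are given as CPM, the UMIs of a gene per 1000000 UMIs summed over the group. In the cycling cells Top2a stood at 904 CPM (864 to 944), Ube2c at 514 (485 to 545), Cenpf at 360 (336 to 386) and Mki67 at 347 (323 to 373). All were at 0 in the marker-free cells by the rule, so these values describe the choice of cells and support nothing. A UMI of Top2a was seen in 293 of the 308 cells, of Mki67 in 257, of Cenpf in 206 and of Ube2c in 192. All 4 genes were seen in 137 cells and only 1 of them in 25. The sum ran from 3 to 62 with a median of 12. When each gene was left out of the sum in turn and cells were chosen by the other 3, the left-out gene was still higher in the chosen cells, Ube2c 33.4-fold (21.3 to 55.7), Mki67 15.1-fold (10.4 to 22.9), Cenpf 12.2-fold (8.80 to 17.5) and Top2a 8.37-fold (7.21 to 9.77). Just inside the threshold, the 29 cells with a sum of 3 had a median of 30 replication-list UMIs and 10 mitosis-list UMIs. Just outside it, the 61 cells with a sum of 2 had medians of 26 and 6.

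The chosen cells were also the deeper ones. Their median was 6680 UMIs (range 1971 to 17944) and 2325 genes, against 4285 UMIs in the cells with a sum of 1 or 2 and 3367 UMIs (1218 to 7656) and 1454.5 genes in the marker-free cells. A raw sum is reached more easily in a deep cell, and whether the larger totals belong to the biology of these cells or to capture cannot be told apart. Every cell of at least 2000 UMIs was thinned to that depth, which left out 49 ALP cells. Of the other 761, 204 (26.8%, 23.7 to 30.1) still had a sum of 3 or more. The median Scrublet doublet score was 0.0732 in both groups, and 1 cycling cell was among the 5 highest-scoring ALP cells, all kept. ALP shared 4 barcode sequences with ILCpro_WT, 2 of them on cycling cells, and 0 with ILCpro_KO. A few ALP cells carried genes of other lineages: 2 of the cycling, 2 of the intermediate and 13 of the marker-free cells held many B cell, neutrophil granule or haemoglobin UMIs. Values without those 17 cells, an alternative chosen after the data were seen, are given wherever they mattered.

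**Figure D1:**
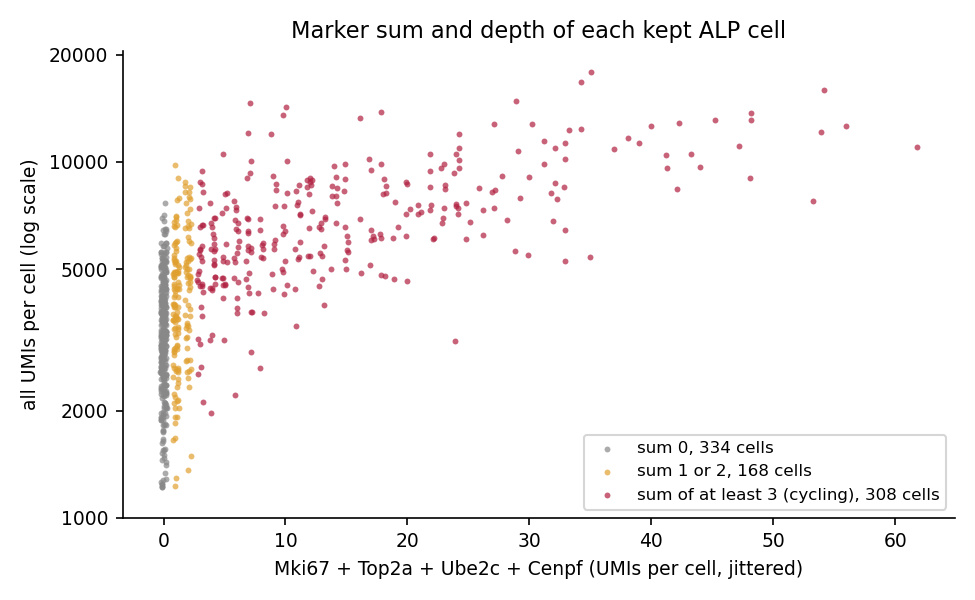
Each point is 1 of the 810 kept ALP cells, with its UMI sum of Mki67, Top2a, Ube2c and Cenpf on the horizontal axis (jittered sideways) and all its UMIs on a log vertical axis. The 308 cycling cells, in red, reach a sum of 62 and lie above the 334 grey marker-free cells in median depth, 6680 against 3367 UMIs, with wide overlap.

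Because the cells were picked by genes that act late in the cycle, the stretches just upstream of these genes are shown. Added to them are those of 3 further cycle genes and of the lymphoid gene Dntt. Capitals mark 3 kinds of letters, searched on both strands. The cell cycle homology region (CHR) was searched as TTTGAA. Its other form in the search was TTCGAA. The CCAAT box was searched as that word. E2F-type letters were TTTCCCGC, TTTCGCGC, TTTGCCGC and TTTGGCGC. Each run is the stretch of 150 bases before the annotated start, 5′ to 3′ on the gene's strand, from RefSeq on GRCm38.p6, and no 2 marked motifs overlap in them. The same stretch of Nusap1, the mitosis gene with the highest ratio, is shown because it holds none of these letters. The stretch of Dntt does hold CHR letters, while those of Cenpf, Ccnb2, Nusap1 and Mcm5 hold none.
Mki67 (chr7:135716380-135716529, minus strand): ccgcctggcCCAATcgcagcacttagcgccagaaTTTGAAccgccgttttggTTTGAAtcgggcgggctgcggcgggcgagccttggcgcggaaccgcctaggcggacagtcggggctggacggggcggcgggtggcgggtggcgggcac
Top2a (chr11:99024190-99024339, minus strand): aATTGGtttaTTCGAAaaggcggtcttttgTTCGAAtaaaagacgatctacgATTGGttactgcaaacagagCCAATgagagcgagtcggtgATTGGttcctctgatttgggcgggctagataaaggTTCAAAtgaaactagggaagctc
Ube2c (chr2:164769779-164769928, plus strand): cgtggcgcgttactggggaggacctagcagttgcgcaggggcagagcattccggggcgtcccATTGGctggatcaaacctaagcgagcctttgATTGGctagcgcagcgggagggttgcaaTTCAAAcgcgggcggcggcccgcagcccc
Cenpf (chr1:189688087-189688236, minus strand): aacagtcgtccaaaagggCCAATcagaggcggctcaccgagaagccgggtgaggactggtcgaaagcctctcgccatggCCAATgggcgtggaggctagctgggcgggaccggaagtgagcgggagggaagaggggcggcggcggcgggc
Ccnb2 (chr9:70421555-70421704, minus strand): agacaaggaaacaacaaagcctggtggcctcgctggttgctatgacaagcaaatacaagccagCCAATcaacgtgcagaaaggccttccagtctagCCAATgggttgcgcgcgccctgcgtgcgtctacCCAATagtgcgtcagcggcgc
Nusap1 (chr2:119618148-119618297, plus strand): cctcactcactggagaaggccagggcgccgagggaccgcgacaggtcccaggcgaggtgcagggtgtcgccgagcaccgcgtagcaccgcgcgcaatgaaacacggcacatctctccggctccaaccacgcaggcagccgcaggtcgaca
Mcm5 (chr8:75109359-75109508, plus strand): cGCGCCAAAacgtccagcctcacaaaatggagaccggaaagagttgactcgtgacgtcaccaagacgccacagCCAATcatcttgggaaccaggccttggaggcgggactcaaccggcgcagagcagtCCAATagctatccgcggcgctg
Dntt (chr19:41029125-41029274, plus strand): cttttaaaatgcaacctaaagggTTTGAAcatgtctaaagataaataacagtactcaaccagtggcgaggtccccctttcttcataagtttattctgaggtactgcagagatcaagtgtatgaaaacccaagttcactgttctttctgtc

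In the 250 bases before the start, CHR letters were found in 3 of the 4 rule genes, not in Cenpf, and CCAAT in all 4. Of the 45 genes of the mitosis list 38 matched a RefSeq window, with 14 genes (36.8%) holding CHR letters and 26 (68.4%) CCAAT; 13 (34.2%) held both. Over all 27025 genes with a window the shares were 19.6%, 37.5% and 7.0%. Of the DNA replication list 33 of 41 genes matched, with CCAAT in 23 (69.7%), a share near that of the mitosis list, and CHR letters in 8 (24.2%). Of these genes 10 (30.3%) held E2F-type letters, against 2.16% of all genes and 1 of 38 mitosis genes (2.63%). In the early lymphoid list 16 of 18 genes matched, with CHR letters in 3 and E2F-type letters in 0. Such a match is a description of letters and not a site.

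Among the gene lists, mitosis had the largest median after the rule genes themselves. Differences are log2 ratios of CPM with 10 added, and a gene is called when it is at least 2-fold higher or lower on that scale, among the 5574 genes with a mean of at least 20 CPM over both groups. By this rule 207 genes (3.71%) were higher and 43 (0.771%) lower in the cycling cells, with a median of -0.01 over all genes. Since the rule markers were chosen from the same cells, the cycle genes describe the choice and are no independent evidence. Of 45 mitosis genes 41 were measured at this level and 40 were called higher, 0 lower, with a median of 2.62. The exception, singled out after its value was seen, was the securin gene Pttg1 at 0.39. The median was 2.62 without the cells of other lineages and 2.47 among cells of 3500 to 6000 UMIs.

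Nusap1, which encodes a spindle microtubule protein, stood at 268 CPM in the cycling and 2.57 in the marker-free cells, a ratio of 104 (35.4 to 506). Prc1, which bundles microtubules of the central spindle, stood at 276 and 6.87 CPM, 40.1-fold higher (20.2 to 93.4). Birc5, the survivin of the chromosomal passenger complex, was at 414 and 24.0 CPM. Cenpa, the histone variant that marks centromeres, was at 390 and 26.6 CPM. Both were seen in far more cycling than marker-free cells, Birc5 in 260 of 308 against 23 of 334 and Cenpa in 195 against 26. Hmmr and Tpx2, both spindle assembly genes, were at 129 against 1.72 CPM and at 190 against 6.01 CPM. Smaller ratios belonged to the checkpoint gene Bub3 (309 and 119 CPM) and the condensin gene Smc2 (282 and 64.4 CPM).

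The mitotic cyclins moved with them. Of 29 cyclin, CDK and E2F genes 21 were measured, 11 were called higher and 0 lower, with a median of 1.10. Ccnb2 stood at 237 CPM against 9.44, a ratio of 25.1 (13.9 to 50.5), Ccna2 at 146 against 3.43, a ratio of 42.6 (16.5 to 157), and Ccnb1 at 172 against 6.87, with a ratio interval of 12.6 to 58.4. Their kinase gene Cdk1 was 10.4-fold higher (6.97 to 16.3), at 224 and 21.5 CPM. The kinases of early G1 differed less, Cdk4 with 503 and 339 CPM and Cdk6 with 557 and 461. Ccnd2, the D-type cyclin that links growth signals to G1, took a smaller share of UMIs in the cycling cells, 323 CPM against 489. The ratio was 1.51 (1.35 to 1.69) in favour of the marker-free cells.

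Replication genes differed less than mitosis genes. The marker-free group was not free of replication UMIs, since the rule did not use replication genes. Its median was 6 of them per cell against 34 in the cycling cells, but it included cells with 43 and 42. How far such cells lower the ratios was not tested. Of 41 DNA replication genes 39 were measured, 8 were called higher and 0 lower, and the median was 0.50, with 36 of the 39 above 0. The widest gap was that of 2810417H13Rik, the PCNA-associated factor gene Pclaf, at 1145 CPM against 71.2, a ratio of 16.1. Uhrf1, which brings DNA methylation to new strands, stood at 114 and 36.9 CPM, a ratio of 3.08 (2.22 to 4.36). Gmnn, the geminin gene that blocks re-licensing of origins, was at 200 and 73.0 CPM, a ratio of 2.75. By contrast Mcm6, a subunit of the replicative helicase, was level, with 182 CPM in the cycling and 188 in the marker-free cells. The replication UMIs of all 41 genes summed to 4977 CPM in the cycling, 4527 in the intermediate and 2534 in the marker-free cells, so most of that step lay between the cells without a marker UMI and those with 1 or 2. The mitosis list summed to 6050, 1264 and 593 CPM in the same order. Its level was also spread among the cycling cells, with Prc1 at 97.0 CPM at a marker sum of 3 to 9, 257 at 10 to 20 and 457 above 20.

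Histone genes gave the next largest list median. Of 21 genes 18 were measured, 14 were called higher and 0 lower, with a median of 2.05. Hist1h1b, a linker histone gene of the chromosome 13 cluster (chr13:21779883-21780625 on GRCm38), stood at 352 CPM against 6.01, a ratio of 58.5 (28.3 to 146). The H2A gene Hist1h2al, outside the list, was at 403 and 16.3 CPM. The variant histone genes H2afx and H2afz were at 724 and 91.8 CPM and at 2715 and 773 CPM. H3f3a, which encodes the replication-independent histone H3.3, was level at 1432 and 1406 CPM. Replication-dependent histone messages mostly lack a poly(A) tail, and a kit that primes on poly(A) reads them incompletely. Near-identical histone genes can also exchange reads, so single members are uncertain.

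Enzymes that supply nucleotides and repair DNA divided into called and level genes. Of 24 nucleotide-synthesis genes 22 were measured and 5 were called higher, 0 lower, with a median of 0.48. Rrm2, the S-phase subunit of ribonucleotide reductase, was at 171 CPM against 20.6, a ratio of 8.28 (5.48 to 13.1). The thymidine kinase gene Tk1 stood at 108 and 13.7 CPM and the thymidylate synthase gene Tyms at 130 and 25.7. The purine enzyme Impdh2 was not called, with 492 and 359 CPM. Among DNA repair genes 5 of 15 measured (21 listed) were called higher and 0 lower, with a median of 0.73. Xrcc6, the Ku70 gene of end joining, took a smaller share of UMIs in the cycling cells, at 125 against 235 CPM. The DNA glycosylase gene Neil3, outside the list, was at 171 and 6.01 CPM.

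Genes that hold back the cycle did not share a direction. Of 19 CDK inhibitor and quiescence genes 12 were measured, 2 were called higher and 1 lower, with a median of -0.27 on the share of UMIs, which flips to 0.63 on UMIs per cell. The INK4-type inhibitor genes Cdkn2c and Cdkn2d were higher in the cycling cells. Cdkn2c stood at 71.0 CPM against 7.72, a ratio of 9.20 (4.72 to 20.5), with UMIs in 95 cycling and 9 marker-free cells. Cdkn2d stood at 55.6 against 18.9 CPM, a ratio of 2.95 (1.86 to 4.87). On the other side were the antiproliferative genes Btg1, at 51.1 CPM in the cycling and 112 in the marker-free cells, and Btg2, at 43.0 and 87.5. Without the cells of other lineages Btg1 was 1.86-fold lower in the cycling cells, under the 2-fold mark.

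Growth and energy genes were close to level as shares of UMIs. Of 27 nucleolus and Myc target genes 24 were measured and 0 were called in either direction, with a median of 0.08. Npm1 and Ncl, which encode abundant nucleolar proteins, stood at 1311 and 1306 CPM and at 915 and 869 CPM. Ran, the GTPase of nuclear transport and spindle assembly, came closest to the mark with 1185 against 609 CPM. Myc itself was at 69.7 CPM in the cycling cells and 106 in the marker-free cells. Of 15 glycolysis genes 12 were measured and 0 called, with a median of 0.22, from 0.59 for Pgam1 to -0.93 for Aldoa.

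**Figure D2:**
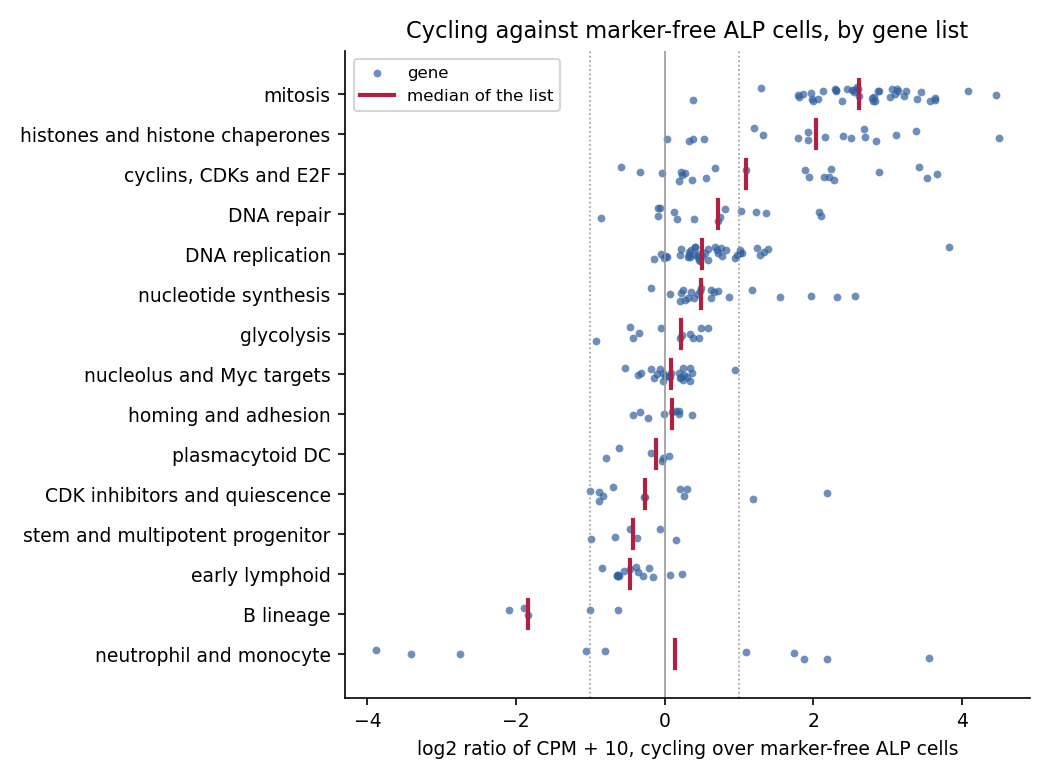
Each blue point is a gene with a mean of at least 20 CPM, placed by its log2 ratio of CPM + 10 in cycling over marker-free ALP cells, with 1 row per gene list and a red bar at the list's median. Dotted lines mark 2-fold. Mitosis genes (median 2.62) and histones (2.05) lie to the right, the early lymphoid genes (-0.47) lie mostly left of 0 inside the dotted lines, and the neutrophil and monocyte genes spread from -3.88 to 3.56.

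The scale matters for every list near 0. A mean cycling cell held 7176 UMIs and a mean marker-free cell 3488, so on UMIs per cell the median gene had a log2 ratio of 0.86. Per cell, the medians of the early lymphoid list (0.54), the CDK inhibitor list (0.63) and the stem list (0.55) turn positive, which relative to the shift of all genes is -0.32, -0.23 and -0.31. Lower levels of these lists below are therefore lower shares of the captured UMIs, and molecules per cell cannot be read from them.

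Early lymphoid genes took a smaller share of the UMIs of cycling cells, by less than 2-fold. Of 18 genes 17 are in the gene list of the files and 15 were measured, of which 13 had a ratio below 0 and 0 were called in either direction, with a median of -0.47 that flips to 0.54 on UMIs per cell. Dntt (chr19:41029275-41059525) stood at 1191 CPM in the cycling cells and 1857 in the marker-free cells, 1.56-fold lower (1.47 to 1.65). Flt3 (chr5:147330741-147400489), the receptor named in the gate, was at 241 and 355 CPM, 1.47-fold lower (1.29 to 1.68). Il7r (chr15:9505788-9530176), the other receptor of the gate, was at 109 and 203 CPM, 1.86-fold lower (1.55 to 2.23). The counting intervals of all 3 ratios exclude 1. The transcription factor genes Satb1 (196 and 310 CPM) and Mef2c (725 and 935 CPM), the receptor gene Notch1 (91.8 and 148 CPM) and the costimulatory receptor gene Cd27 (216 and 342 CPM) lay on the same side. Sox4, another transcription factor gene, was at 341 and 476 CPM.

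The UMIs per cell of these genes were not lower. A cycling cell held on average 8.55 UMIs of Dntt (8.22 to 8.88) against 6.48 (6.21 to 6.75) in a marker-free cell. For Flt3 the means were 1.73 and 1.24 UMIs, and for Il7r 0.786 (0.690 to 0.891) and 0.710 (0.622 to 0.806), whose intervals overlap. Thinned to 2000 UMIs, a UMI of Dntt was seen in 76.9% of 307 cycling cells (71.7 to 81.5) and 91.5% of 295 marker-free cells (87.7 to 94.4). The unthinned shares were 90.6% and 90.4%. Thinned shares for Flt3 were 36.8% (31.4 to 42.5) and 53.9% (48.0 to 59.7), and for Notch1 16.9% and 29.2%. As a background, 344 ILCpro_WT cells with at least 2 UMIs of Zbtb16, a gene of ILC precursors, gave 1.74% for Dntt and 1.45% for Flt3 at the same depth, with a median of 3029 UMIs before thinning. Thinned Il7r shares were 16.9% and 30.8%, but ILC precursors carry that receptor themselves and the same cells gave 18.02%, so they are no blank for it.

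A window of depth left ratios on the same side. With both groups limited to cells of 3500 to 6000 UMIs (106 cycling cells with a median of 5069 UMIs and 149 marker-free cells with 4216, so still unequal, and an alternative added after the data were seen), the log2 ratio was -0.66 for Dntt, -0.40 for Flt3 and -0.97 for Il7r, against -0.64, -0.54 and -0.84 in all cells. Without the cells of other lineages they were -0.64, -0.55 and -0.84. A UMI of Dntt, Flt3 or Il7r was seen in 298 of the 308 cycling cells and 314 of the 334 marker-free cells, unthinned and with no background share for the combination. Flt3 and the IL-7 receptor were also sorted on as proteins. Dntt, outside the gate and well above its background when thinned, is the marker that bears on the label. The recombinase genes Rag1 and Rag2, given outside the naming rule, were low in both groups, with 8.60 and 12.9 CPM for Rag1 and 28.5 and 34.3 CPM for Rag2, and the intervals of both ratios include 1.

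Genes of the B lineage were scarcer in cycling cells, and Ebf1 led those that were so in ordinary progenitors. Of 14 genes 5 were measured, 4 were called lower and 0 higher, with a median of -1.83. Part of this rests on few cells: 10 marker-free cells and 0 cycling cells had at least 4 UMIs of B cell genes such as Cd79a and Ms4a1, at 1221 to 2033 UMIs over all 12 such ALP cells. Without the cells of other lineages the median was -0.50, and in the 3500 to 6000 UMI window -0.26 over the same genes (-0.27 with genes filtered anew in the window). Cd79a, a signalling chain of the B cell receptor, then stood nearly level (log2 ratio -0.09 against -2.09 before), and 44 of its 47 marker-free UMIs came from such cells. Cd79b moved from -1.01 to -0.33 and Ly6d, a surface protein of B-biased progenitors, from -1.83 to -0.40. Ebf1 (chr11:44617317-45008091), the transcription factor that starts the B programme, was at 12.2 CPM in the cycling and 72.1 in the marker-free cells, a log2 ratio of -1.89. It stayed past 2-fold without those cells (-1.46, 4.18-fold lower) and in the window (-1.40). No cycling cell held more than 1 UMI of Ebf1, and 27 cells held it, against 48 marker-free cells with up to 6. Per cell, too, it was lower, 0.0877 UMIs (0.0578 to 0.128) against 0.251 (0.201 to 0.311). Of the 84 marker-free UMIs of Ebf1, 25 lay in cells of other lineages, which the counts and means per cell include. Thinned shares were 2.61% (1.13 to 5.07) and 10.8% (7.54 to 14.97), against 0.291% in the Zbtb16 cells. Blnk, an adaptor of B cell receptor signalling, was at 37.1 and 62.7 CPM.

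Primary granule genes of the myeloid lineage were higher in cycling cells. Of 17 neutrophil and monocyte genes 10 were measured, 5 were called higher and 4 lower, with a median of 0.15 that flips to -0.04 when per-cell CPM are averaged, and single cells held the UMIs of most extremes. Ngp, Camp and S100a9, genes of maturing neutrophils, were lower, and a single marker-free cell held 183 of 183, 117 of 118 and 234 of 238 of their UMIs in that group. In the other direction 1 cycling cell of 13788 UMIs held 275 of the 283 Elane and 276 of the 285 S100a8 UMIs. The genes of the remaining granule proteins were spread over more cells. Mpo, the myeloperoxidase gene, was seen in 162 cycling and 91 marker-free cells, at 259 and 116 CPM. Prtn3 (chr10:79874476-79883174), the proteinase 3 gene next to Elane (chr10:79886247-79888215), was seen in 106 and 39 cells, at 206 and 48.9 CPM. Ctsg, the cathepsin G gene, was seen in 61 and 13 cells, at 105 and 15.4 CPM.

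Without the cells of other lineages these ratios shrank but Prtn3 and Ctsg stayed past 2-fold. The log2 ratios went from 1.09 to 0.67 for Mpo, from 1.88 to 1.43 for Prtn3 (3.03-fold) and from 2.18 to 1.79 for Ctsg (5.03-fold). In the 3500 to 6000 UMI window they were 0.41, 0.67 and 0.71, all under 2-fold and smaller than in all cells; the part of depth was not tested further. Thinned to 2000 UMIs, Prtn3 was seen in 17.3% of cycling cells (13.2 to 22.0) and 5.76% of marker-free cells (3.39 to 9.07), against 3.49% in the Zbtb16 cells. For Ctsg the shares were 8.47% (5.61 to 12.2) and 2.03% (0.750 to 4.37), against 1.45%, and for Mpo 27.4% (22.5 to 32.7) and 20.7% (16.2 to 25.8), whose intervals overlap. At least 5 UMIs of Mpo, Prtn3 and Ctsg together were held by 44 cycling cells, of which 38 also had Dntt or Flt3 UMIs and 33 had Dntt. Over all 308 cycling cells 279 had a UMI of Dntt, a larger share than 33 of 44, all unthinned. Among the marker-free cells 7 held at least 5 UMIs of Mpo, Prtn3 and Ctsg together, at their lower depth. Lyz2, the lysozyme gene of monocytes and neutrophils, went the other way, at 130 CPM in the cycling and 282 in the marker-free cells. Its UMIs there were concentrated too, with 103 and 67 of 328 in 2 cells, and the log2 ratio of -1.06 became -0.76 without the cells of other lineages and -0.25 in the window.

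Lists of other lineages held few measured genes. Of 13 conventional dendritic cell and MHC class II genes 4 were measured and 2 were called lower, with a median of -1.15, which became 0.03 without the cells of other lineages. Cd74, the invariant chain gene, was at 18.6 and 319 CPM, and 328 of its 372 marker-free UMIs came from the set-aside cells. Among 13 erythroid and megakaryocyte genes 5 were measured and 4 called higher, all globin genes. For Hba-a1, 175 of 188 cycling UMIs lay in 1 cell, and its log2 ratio of 1.07 turned to -0.48 without the cells of other lineages. Of 11 plasmacytoid dendritic cell genes 6 were measured and 0 called. Irf8, a transcription factor of that lineage, was level at 769 and 778 CPM, while Cox6a2, a subunit gene of cytochrome oxidase, was at 290 and 507. The ILC list had 5 measured genes (median -0.22), the NK list 2, the T lineage list 1 and the mast cell and basophil list 0, none called. Some of their markers were near the floor in both groups: Tcf7 had 3 UMIs in each, Rora 4 and 2, Ccl5 5 and 8. The ILC list as a whole was not, with 186 CPM in the cycling and 259 in the marker-free cells. Its UMIs were seen in 201 and 174 cells, unthinned. The NK list stood at 131 and 181 CPM, with UMIs in 150 and 128 cells. The T lineage list summed to 64.7 CPM in the cycling and 135 in the marker-free cells, with 5 of 12 genes at 0 in either group. Most of its UMIs were of Lck (48.0 and 103 CPM), the kinase gene of T cell receptor signalling.

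Of 14 stem and multipotent progenitor genes 6 were measured and 0 called, with a median of -0.42 (0.55 on UMIs per cell). Cd34 stood at 278 and 364 CPM and Meis1, a transcription factor gene of stem cells, at 48.0 and 82.4. In the cytokine receptor list 1 of 11 measured genes was called, Il2rg, the common gamma chain, lower in the cycling cells at 24.4 against 63.5 CPM, a ratio of 2.60 (1.81 to 3.76). The lists of homing genes (9 measured), Bcl2 family genes (7), immediate early genes (6) and interferon response genes (4) had 0 called, with medians of 0.09, -0.09, -0.52 and -0.26. Among the lowest ratios outside the lists were Ltb, the lymphotoxin beta gene, with 7 UMIs in the cycling and 71 in the marker-free cells, and Tcp11l2 with 12 and 59. Their log2 ratios were -2.43 and -1.97, -1.93 and -1.95 without the cells of other lineages, and -1.71 and -2.06 in the 3500 to 6000 UMI window. Sdc4, a syndecan gene, went from -1.82 to -0.61 in the window.

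Within the ALP library Dntt, Flt3 and Il7r had their largest step in CPM from the bin of 1 to 2 to that of 3 to 9, across the threshold. The cells with a sum of 1 or 2 had 42 genes (0.760%) called higher and 14 (0.253%) lower than the marker-free cells, of 5523 measured, with medians of 0.83 for mitosis and 0.58 for replication genes. Dntt stood at 1857 CPM at a sum of 0, 1595 at 1 to 2, 1146 at 3 to 9, 1236 at 10 to 20 and 1193 above 20. Flt3 went from 355 over 320 to 246, 225 and 251 CPM in the same order, and Il7r from 203 over 162 to 105, 93.0 and 128. The cells just below the threshold lay between the marker-free and the cycling cells for all 3. Ebf1 went from 72.1 over 39.2 to 10.9, 10.2 and 15.2 CPM. Its largest step in CPM was from a sum of 0 to 1 to 2, and its largest ratio was across the threshold. Without the cells of other lineages its first 3 bins stood at 51.6, 33.9 and 10.9 CPM. Mcm6 was highest at a sum of 3 to 9 (303 CPM) and lowest above 20 (87.3 CPM). Ccnb1 and Cdkn2c were higher in each further bin, from 39.6 to 326 CPM and from 24.6 to 108 CPM between the same 2 bins. The bins share the depth trend, with median UMIs of 3367, 4285, 5564, 6620 and 9060.

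**Figure D3:**
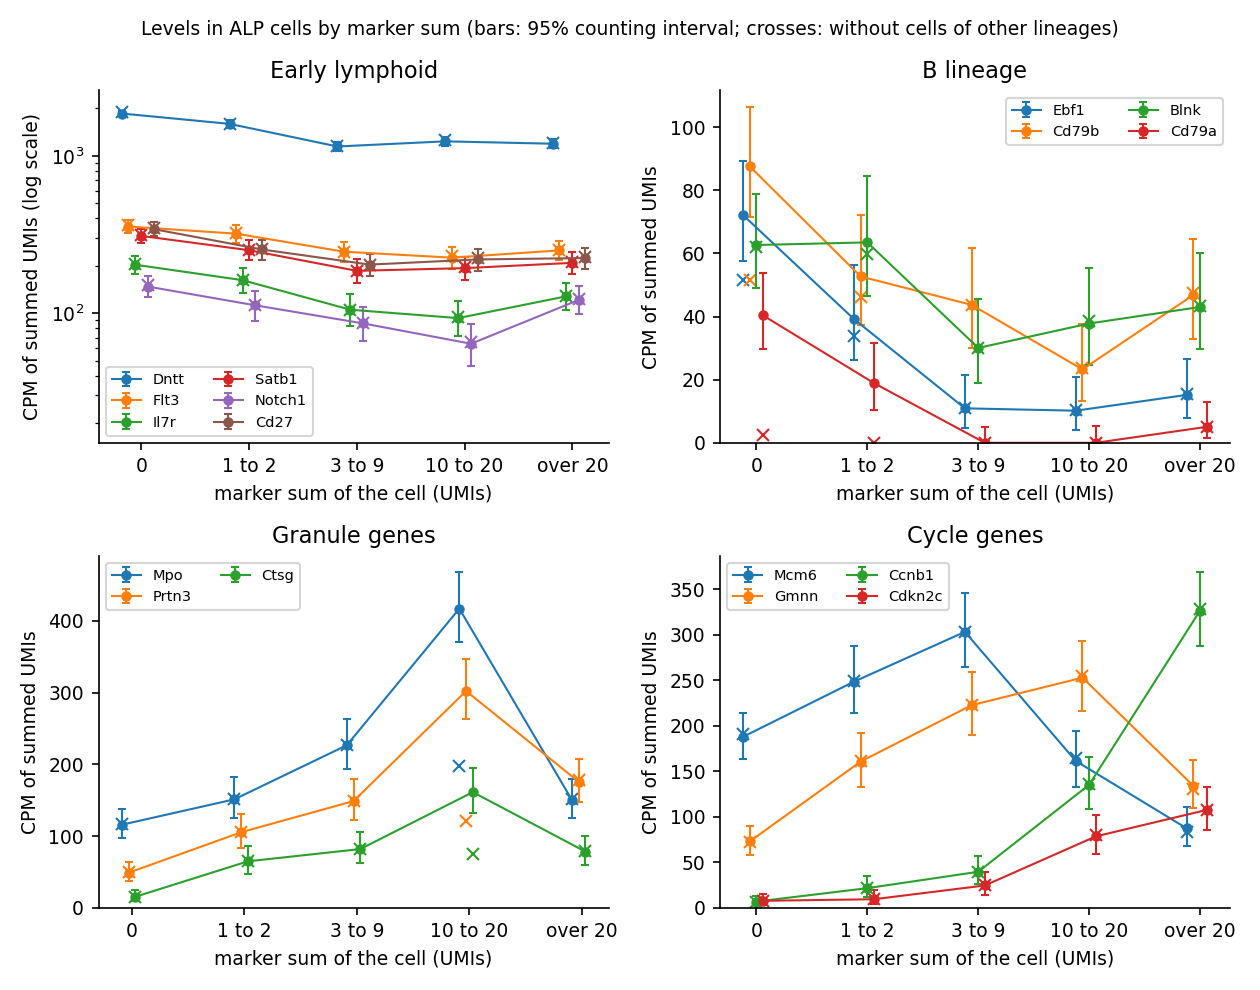
CPM of summed UMIs in ALP cells binned by their marker sum, with 95% counting intervals as bars and crosses for the values without cells of other lineages; the early lymphoid panel has a log axis. Dntt falls short of its level at a sum of 0 (1857 CPM) in every cycling bin (1146 to 1236), and the crosses of Mpo, Prtn3 and Ctsg at 10 to 20 lie well below the circles, the bin in which 1 cell held much of the UMIs.

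The cycling cells were a mixture along the cycle. By the larger of 2 sums, UMIs of the replication list or of the mitosis list, 146 cells leaned to S phase and 162 to G2 and mitosis, with 0 ties and 32 cells within 10% of the line. With each list first scaled to its mean over the cycling cells, the split was 164 and 144. The division is a range cut from a score, and the genes of those lists were used by it. The S-leaning cells had a median of 5842.5 UMIs and a marker sum of 6.5, and the others 7389.5 UMIs and a sum of 21. Of the rule genes, Ube2c stood at 64.1 and 854 CPM, Cenpf at 99.8 and 557, Mki67 at 258 and 415 and Top2a at 725 and 1039, so the S-leaning cells held mainly Top2a and Mki67 among the 4. Outside the 2 lists, Cdkn2c was at 34.7 CPM in the S-leaning and 98.5 in the other cells, a ratio of 0.352 (0.232 to 0.52). Rrm2 stood at 267 and 97.7 CPM and Tyms at 198 and 78.7. The histone gene Hist1h1b stood at 380 and 330 CPM, a ratio of 1.15 whose interval just includes 1, and at 416 and 288 CPM, a ratio of 1.45 (1.25 to 1.67), in the scaled split.

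Lymphoid genes differed by less than 2-fold between these positions. Dntt was at 1138 CPM in the S-leaning and 1231 in the other cells, a ratio of 0.925 whose interval starts at 0.855 and ends just under 1. Flt3 was at 224 and 254 CPM and Il7r at 104 and 114, both with intervals that include 1. The ratios of Notch1 (0.711, 0.525 to 0.956), Cd27 (0.773, 0.638 to 0.934) and Sox4 (0.790, 0.679 to 0.918) had intervals below 1, as shares lower in the S-leaning cells. In the scaled split Dntt was at 0.833 (0.771 to 0.8999) and Flt3 at 0.819 (0.688 to 0.975), both below 1, and Il7r at 1.01. The median ratio of the early lymphoid list was -0.19, against -0.01 over all genes. A receptor gene and an interferon gene of the lists differed more. Il18r1, an IL-18 receptor chain gene, was at 11.6 and 40.5 CPM, and Ifi27l2a, an interferon-induced gene, at 90.4 and 241. Ctsg was near level at 102 and 108 CPM, and 61.5 in the G2 and mitosis cells without those of other lineages.

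**Figure D4:**
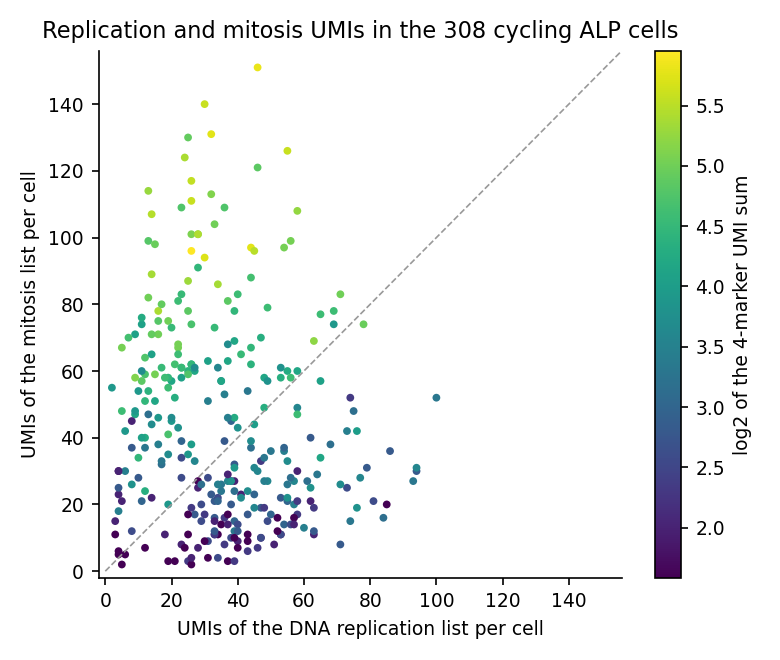
Each point is 1 of the 308 cycling ALP cells, with its UMIs of the 41 DNA replication genes on the horizontal and of the 45 mitosis genes on the vertical axis, coloured by the log2 of its marker sum. The 146 cells below the dashed line of equality carry low sums (median 6.5) and the 162 above it high ones (median 21).

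The same rule chose 284 of 1829 ILCpro_WT cells (15.5%, 13.9 to 17.3) and 225 of 716 ILCpro_KO cells (31.4%). Thinning to 2000 UMIs left out the cells below that depth, 383 in ILCpro_WT, 16 in ILCpro_KO and 49 in ALP. Of those in ILCpro_WT 351 had a sum of 0. Among the remaining cells the share with a sum of 3 or more was 12.9% (11.2 to 14.7) in ILCpro_WT and 15.4% (12.8 to 18.3) in ILCpro_KO. Both were below the 26.8% of ALP. Against the marker-free cells of their own library, 243 of 5323 genes (4.57%) were called higher and 103 (1.93%) lower in ILCpro_WT, and 195 of 5611 (3.48%) higher and 94 (1.68%) lower in ILCpro_KO. The mitosis medians were close and the replication medians higher than in ALP. The mitosis median was 2.65 and 2.36 there, against 2.62 in ALP, and the replication median 0.94 and 0.74, against 0.50. Genes were filtered anew in each library, so the gene sets differ. In the same order the medians rest on 37, 37 and 41 mitosis genes and on 32, 36 and 39 replication genes. Cdkn2c was higher in the cycling cells of both, at 64.3 against 3.89 CPM in ILCpro_WT and 53.4 against 9.43 in ILCpro_KO.

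Lineage genes stood differently. The early lymphoid medians were 0.11 in ILCpro_WT (13 genes) and -0.16 in ILCpro_KO (13 genes), against -0.47 in ALP (15 genes). Dntt, at 36.7 and 25.9 CPM in cycling and marker-free ILCpro_WT cells, was 1.42-fold higher in the cycling ones, with an interval that barely excludes 1. Il7r was lower in the cycling cells of all 3 libraries, at 32.1 against 131 CPM in ILCpro_WT and 2.97 against 19.5 in ILCpro_KO. Kit, the stem cell factor receptor gene, was at 30.8 and 34.3 CPM in ALP, 29.5 and 85.1 in ILCpro_WT and 14.3 and 37.1 in ILCpro_KO. The survival gene Bcl2 was close to level in ALP, 278 and 260 CPM, and at 635 against 1502 in ILCpro_WT and 672 against 1480.2 in ILCpro_KO. The ILC list had 10 of 13 measured genes called lower in cycling ILCpro_WT cells and 8 of 12 in ILCpro_KO, while 0 of 5 were called in ALP. Mast cell and basophil genes moved in the same comparisons. In ILCpro_WT 2 of 3 measured were called higher (median 3.54), the cycling cells holding 257 CPM of Prss34 and the marker-free cells 8.34, and for Mcpt8 352 and 21.1. In ILCpro_KO 1 of 4 was called higher and 1 lower (median -0.92). Their part in the lower ILC genes was not tested. Mpo, Prtn3 and Ctsg were higher in the cycling cells of both, Ctsg at 155 against 25.3 CPM in ILCpro_WT and 651 against 222 in ILCpro_KO. None of these differences between libraries was tested.

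**Figure D5:**
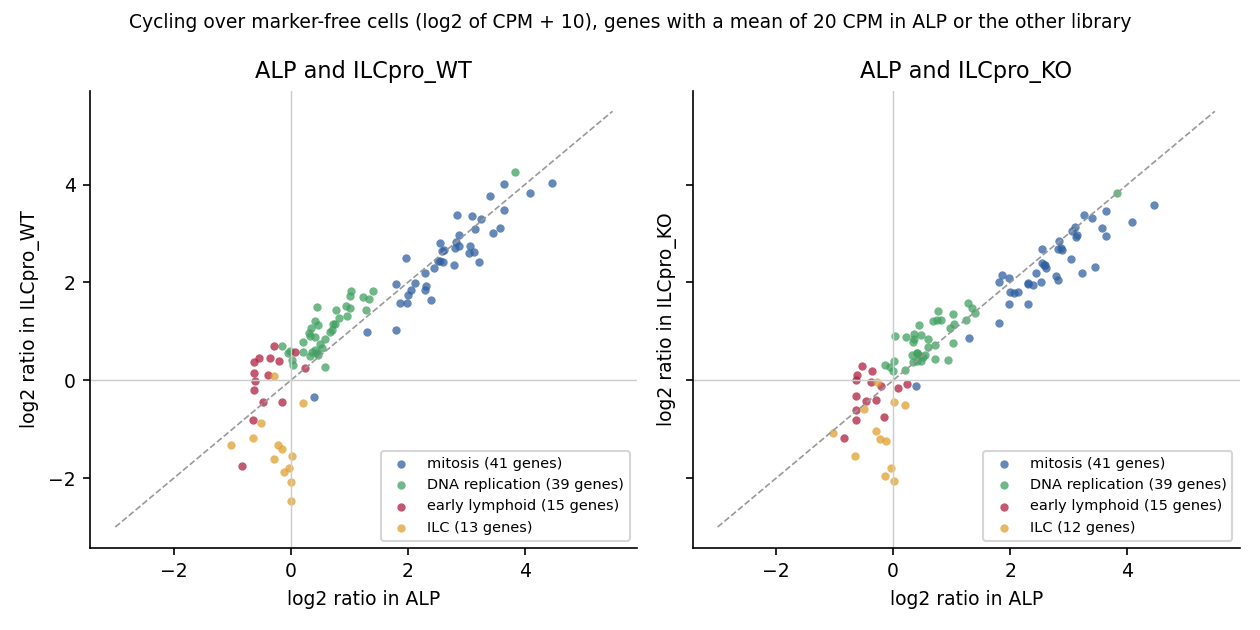
Log2 ratios of cycling over marker-free cells (CPM + 10) in ALP on the horizontal axis and in ILCpro_WT (left) or ILCpro_KO (right) on the vertical axis, 1 point per gene of 4 lists. Mitosis genes lie along the dashed line of equality and most replication genes above it, whereas ILC genes lie near 0 in ALP and mostly below 0 in the ILCpro libraries.

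Between cycling cells of the 2 Tcf7EGFP/+ gates no mitosis or replication gene was called, while many lineage genes were. Of 5409 genes 144 (2.66%) were called higher and 74 (1.37%) lower in cycling ALP than in cycling ILCpro_WT cells. The mitosis list had 0 of 45 called (median 0.24) and the replication list 0 of 39 (0.14), against a median of 0.05 over all genes. Of the other cycle lists, Hist1h4d among 20 histone genes, Zfp36l2 among 13 CDK inhibitor and quiescence genes and Xrcc6 among 17 DNA repair genes were called higher in ALP, with log2 ratios of 1.34, 1.14 and 1.78. Of the early lymphoid list 7 of 14 were higher and 0 lower, and of the ILC list 12 of 13 lower and 0 higher. The ALP gate selected for Flt3 and IL-7Ra, and the other gate for Tcf7 and a4b7. Ratios of the genes for these therefore describe the sort at least in part, whereas Dntt, Rora and Id2 are outside both gates. Dntt was 32.4-fold higher in cycling ALP cells (24.9 to 43.1), at 1191 against 36.7 CPM, and Flt3 10.8-fold (7.64 to 15.8). The log2 difference was smaller among cycling than among marker-free cells, 4.68 against 5.70 for Dntt and 2.96 against 3.95 for Flt3. Of the ILC genes, Tcf7 was at 1.36 CPM against 164, Rora at 1.81 against 138 and Id2 at 10.9 against 292. Here too the marker-free cells stood further apart, with log2 ratios of -5.19 for Tcf7 and -5.74 for Rora, against -3.94 and -3.65 in cycling cells. Other genes higher in cycling ALP cells were Egfl7 (340 against 35.4 CPM), Cox6a2 (290 against 21.6), Cnn3 (254 against 26.2) and Clec12a (314 against 42.6). Lower ones included the mast cell and basophil protease genes Prss34 (0 UMIs in cycling ALP cells, at least 189-fold lower against 3 UMIs, with 257 CPM in ILCpro_WT), Mcpt8 (3.17 against 352 CPM) and Cpa3 (0.452 against 133 CPM).

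The other genes of the ALP gate differed by less than 2-fold between cycling and marker-free cells. Kit had UMIs in 49 cycling and 39 marker-free cells, and its ratio interval includes 1 (1.12-fold lower, 0.736 to 1.67). Cd244, the gene of the 2B4 receptor, was at 36.6 and 52.4 CPM, 1.43-fold lower (1.01 to 2.02). Itga4, the alpha 4 integrin gene, was at 156 and 198 CPM, and Itgb7, the beta 7 integrin gene that the gate selects against as protein, at 27.1 and 22.3 CPM (1.22-fold, 0.756 to 2.01).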

How the data were processed

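Single-cell 3' gene expression was measured in 3 libraries, 1 per group. The authors deposited raw UMI counts per gene and cell barcode, with 27998 genes. Per the submitters' processing notes, bcl2fastq 2.17, STAR 2.5.1b and Cell Ranger 2.0.1 were used with the build mm10; their settings are not given in the sources used here. Cells with at least 500 genes and at most 10% mitochondrial UMIs were kept. UMIs were summed over the cells of a group (Python 3.11.15, scipy 1.17.1, scanpy 1.11.5) and intervals were exact: Poisson for levels, Clopper-Pearson for shares and, for ratios, binomial given the summed UMIs. With 1 library per group no test was made. Doublets were scored with Scrublet and kept. Of 458 listed genes 457 were found in the files. Locations are from GENCODE on GRCm38. The members and the gene lists were chosen with earlier results of these data known. Named genes were the 12 highest and 12 lowest ratios, and in each list the 5 largest ratios and the 5 highest levels, with 8 in each direction between the gates, the rule genes and the genes of the gates. The ratio and interval calculation was tested on simulated UMI sums with known ratios. Those sums had counting error only, so spread between cells and the choice of deeper cells were not covered. Cells of other lineages were those with at least 4 UMIs of B cell genes such as Cd79a and Ms4a1, or at least 10 UMIs of neutrophil granule or haemoglobin genes.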

Additional observations from a re-analysis of the deposited data

How the results depend on the processing

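With 1 library per group, replicate error is unknown and depth differs between the groups compared. No paired analysis was possible because each group is 1 library. Over 20 settings, 2817 values stayed within the tolerance, 335 moved and 25 reversed, and the cause was not tested. The tolerance of a list median ran from 0.24 log2 units (early lymphoid) to 1.13 (mitosis), so a value that stayed could still shift. In the setting called the thinned rule, each cell of at least 2000 UMIs was drawn to 2000. The 389 cells with any marker UMI were then set against the 372 with none, a looser cut than a sum of 3. Of 54 higher and 23 lower genes followed singly, 42 and 3 were still called with the thinned rule. At 3500 to 6000 UMIs 43 and 6 were. Of the 23 lower genes 15 and 18 kept their sign in these settings. The 207 genes higher became 108 with a filter at 50 CPM and 1920 on UMIs per cell. The 43 lower became 67 with a filter at 5 CPM, 18 at 50 CPM and 98 with a pseudocount of 1. They became 65 with averaged per-cell CPM and 11 on UMIs per cell. A stricter cell filter (1000 genes, 5% mitochondrial UMIs) gave 24 and the thinned rule 5. On UMIs per cell the list medians were 1.39 for replication, 2.88 for histones, 0.54 for early lymphoid, -1.01 for B lineage, 1.12 for neutrophil and monocyte, 1.07 for nucleolus and 0.63 for CDK inhibitor genes. The pseudocount of 1 gave 3.82 for mitosis and 2.66 for histones. The B lineage median of -1.83 was -2.48 with averaged per-cell CPM, -0.51 with the stricter cell filter, -0.65 against the marker-free cells nearest in UMIs (medians still 6680 and 3555), -0.20 with the thinned rule, -0.27 at 3500 to 6000 UMIs and -0.50 without cells of other lineages. The neutrophil median of 0.15 was -0.80 with a filter at 50 CPM, -2.19 without cells above the 95th percentile of UMIs, 1.92 with the stricter cell filter and 1.26 without cells of other lineages, and the CDK inhibitor median was -0.84 at 50 CPM. The share of cycling cells was 45.6% at a sum of 2, 29.6% at a sum of 6 and 51.1% for any marker UMI after thinning, where ILCpro_WT had 28.8% and ILCpro_KO 37.3%. Log2 ratios that changed sign were, with the thinned rule, S100a9 1.15, Cd79a 0.27, Camp 0.0211, Ngp 0.074, H2-Aa 0.17, H2-Eb1 0.042, Cd74 0.41 and Ms4a1 0.50. With the stricter cell filter they were S100a9 1.22, Ngp 0.18 and H2-Aa 0.037. Without cells of other lineages they were S100a9 0.017, Hbb-bt -0.49, Hbb-bs -0.15, Ngp 0.19, Hba-a1 -0.48, Hba-a2 -0.16 and H2-Aa 0.065. At 3500 to 6000 UMIs they were S100a9 0.077, Cd79a 0.044, Hbb-bt -0.34, Hbb-bs -0.12, Hba-a1 -0.13, H2-Aa 0.27 and Ms4a1 0.044.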
